A study of Mus musculus with 29 samples.

Results

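Vasoactive peptide signalling in primary mouse cardiac fibroblasts was followed through 10 genes, taken by gene symbol from the 55357 genes of the count table. The angiotensin system was represented by Agt, Ace, Enpep, Agtr1a and Agtr2, the endothelin system by Edn1, Ednra and Ednrb, and the natriuretic peptide system by Npr1 and Npr3. The study asked how the age of the cells, the age of the heart matrix and the stiffness of the support each bear on cardiac fibroblasts. Messenger RNA was counted in 29 libraries of 10 groups. Aged (ACF) and young (YCF) cells were sequenced fresh, with 3 libraries each, or after 48 h on DECIPHER substrates, in which extracellular matrix (ECM) of aged (A) or young (Y) heart is held in a stiff or soft hydrogel. The cultured groups were ACF+StiffA, ACF+SoftA, ACF+StiffY, ACF+SoftY, YCF+StiffA, YCF+SoftA, YCF+StiffY and YCF+SoftY, with 3 libraries each except for 2 of YCF+SoftY. The labels name no strain, sex, age in months, genetic change or added agent for any group. The labels number the libraries of a group as biological replicates and do not say which animals they came from, so a p-value here sets a difference against the spread of the libraries, which may be technical.

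Angiotensinogen, the product of Agt, is cut by renin to angiotensin I and then by angiotensin-converting enzyme (Ace) to angiotensin II. Angiotensin II acts through the type 1 receptor, followed here through Agtr1a, to drive contraction, growth and matrix production in the heart. Endothelin-1 (Edn1) is a peptide with related actions that it exerts through the receptors Ednra and Ednrb, and Ednrb also clears the peptide. Natriuretic peptides oppose both systems through Npr1, a receptor that makes cyclic GMP, and are removed by the clearance receptor Npr3. Aminopeptidase A (Enpep) degrades angiotensin II to angiotensin III.

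Promoters are shown for Ace, Edn1 and Ednrb, whose RNA separated the libraries by matrix age (Ace), by cell age in culture (Edn1) and by cell age in fresh cells (Ednrb). Each line is a window of 300 bases around the annotated gene start from the RefSeq promoter table, build GRCm38.p6, written along the gene's strand with motif matches in capitals. 9 of the 10 members were found in that table, Agtr1a being the exception.
Ace, chr11:105967698-105967997, plus strand, the more upstream of 2 entries: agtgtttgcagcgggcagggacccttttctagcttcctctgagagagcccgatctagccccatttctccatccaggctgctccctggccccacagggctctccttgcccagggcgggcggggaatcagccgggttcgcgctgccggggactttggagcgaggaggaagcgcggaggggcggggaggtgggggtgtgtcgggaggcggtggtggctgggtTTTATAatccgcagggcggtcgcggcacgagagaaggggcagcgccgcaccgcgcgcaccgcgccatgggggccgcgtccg
Edn1, chr13:42301226-42301525, plus strand: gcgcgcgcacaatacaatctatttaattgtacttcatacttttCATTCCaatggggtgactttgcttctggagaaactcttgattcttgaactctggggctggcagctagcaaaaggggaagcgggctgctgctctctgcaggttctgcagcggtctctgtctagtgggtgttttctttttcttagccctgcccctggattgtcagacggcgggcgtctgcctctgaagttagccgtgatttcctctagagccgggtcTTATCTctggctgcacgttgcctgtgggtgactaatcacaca
Ednrb, chr14:103843652-103843951, minus strand: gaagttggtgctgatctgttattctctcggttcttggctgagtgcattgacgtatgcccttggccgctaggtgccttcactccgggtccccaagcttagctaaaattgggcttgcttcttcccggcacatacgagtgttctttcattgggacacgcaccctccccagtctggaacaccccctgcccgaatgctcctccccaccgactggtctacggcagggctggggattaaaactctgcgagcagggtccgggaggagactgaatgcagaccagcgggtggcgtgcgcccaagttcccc
The letters searched on both strands were TGANTCA for AP-1, CATTCC for TEAD factors, AGATAA for GATA factors and TATAAA for the TATA box. No pair of these motifs overlaps in the windows shown. They occur in 7.81%, 14.7%, 11.2% and 13.6% of the 32851 promoter windows of the table, in that order. In Ace the capitals mark a TATA box match on the reverse strand at position -31 from the gene start. In Edn1 they mark a TEAD match at position -207 and a GATA match on the reverse strand at position 9. The Ednrb window holds none of the 4 motifs, and among the other members Agt has a TATA box match at position -30 and Enpep has a pair at -52 and -1. These matches describe the letters and not the binding of a factor.

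Library totals ran from 1192668 to 3275089 counts, so that a gene at 10 CPM (counts scaled to library size) rested on 12.1 to 35.1 counts. Libraries of a group correlated with each other at 0.935 to 0.982 on average (Pearson's r across genes, log2 CPM), with YCF+SoftA replicate 3 the lowest and the next library at 0.951. The library names carry a letter for each substrate and a number that follows cell age, so that a difference of preparation between them cannot be told apart from the groups. All 9 fibroblast marker genes were read in fresh and in cultured cells. Their summed level was 6332 to 6829 CPM in fresh ACF, 7310 to 7716 CPM in fresh YCF and 19800 to 30516 CPM after culture. Endothelial markers were also read in every group, with a summed level between 516 and 834 CPM, and none of the 14 was at 0. Myeloid markers summed to 383 to 433 CPM in fresh ACF, against 214 to 219 CPM in fresh YCF, and to 23.1 to 67.2 CPM after culture. Markers of pericytes and smooth muscle summed to 198 to 232 CPM in fresh ACF, against 382 to 433 CPM in fresh YCF. In such bulk libraries, fewer cells of a type and less RNA per cell cannot be told apart.

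Levels are CPM over library totals scaled by TMM, with the SD over libraries. Changes are log2 fold changes ± SE of edgeR's quasi-likelihood test with Benjamini-Hochberg adjustment over all genes tested, and "rose" and "fell" are used only for an adjusted p under 0.05. A filter on low counts left 5 members in fresh cells, 8 where cultured cells were set against fresh ones and 7 among cultured cells. Agtr2 and Npr1 passed it in no comparison, and Npr3, Agt and Ednra were not tested in fresh cells. In fresh ACF over fresh YCF, 1 member rose and 1 fell of the 5 tested, where 31.8% of all genes tested were called. In cultured over fresh cells, 5 rose and 1 fell of 8 in ACF, where 62.4% of all genes were called, and 5 rose and 2 fell of 8 in YCF, where 56.9% were called. The culture effect differed between ACF and YCF for 2 of 8 members, where it did so for 20.6% of all genes. The 8 include Agt, whose difference could not be estimated because it had no count in fresh cells. In cultured ACF over cultured YCF, 1 member rose and 3 fell of 7, where 15.0% of all genes were called. Members that passed the filter only through the group where they were high, such as Agt and Npr3, had to differ, so these counts describe the members and do not test them as a set. The median log2 fold change of the 8 members tested was 2.09 for ACF and 1.83 for YCF after culture, beside -0.01 and -0.03 for all genes tested. With Agt at its lower bound these medians were 2.03 for ACF and 1.83 for YCF. The comparisons of cultured with fresh cells and of ACF with YCF share libraries with each other, so that their values are given side by side and are not independent.

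**Figure D1:**
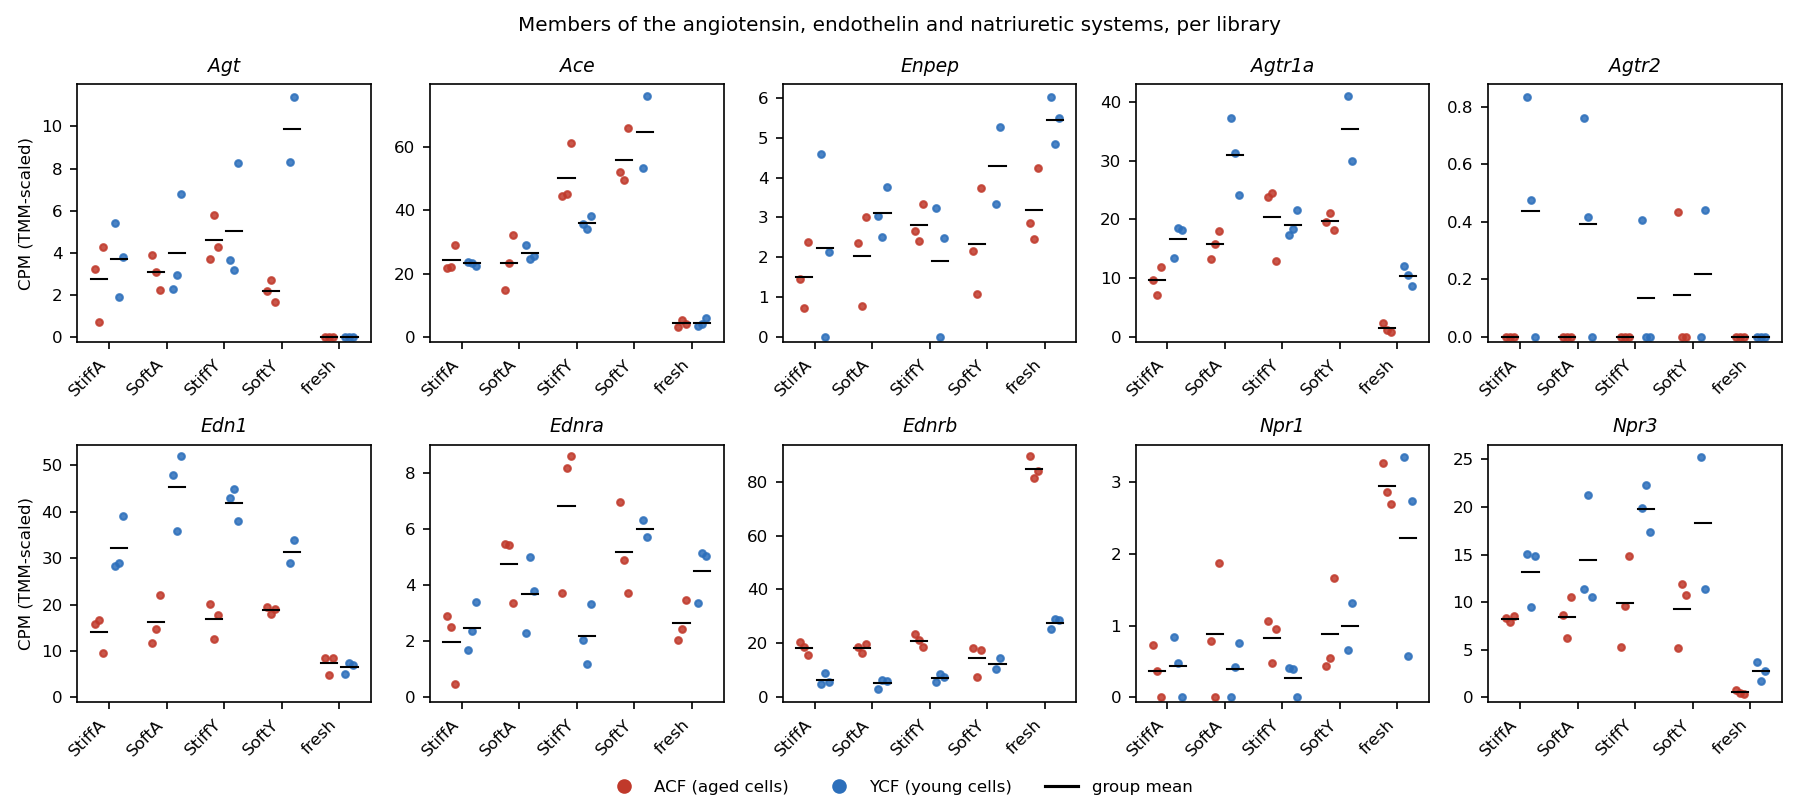
Level of each member in every library (vertical axis, TMM-scaled CPM) by substrate or fresh state (horizontal axis), for aged cells (ACF, red, left of each pair) and young cells (YCF, blue), with bars at group means. Ace, Agt and Npr3 lie higher in the cultured groups, Ednrb lies highest in fresh ACF at 84.9 CPM, and Edn1 in cultured YCF lies above cultured ACF in every library.

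Ace RNA was low in fresh cells of both ages, and after culture it was 8.16 times higher in ACF and 7.75 times higher in YCF. Ace (ENSMUSG00000020681, mm39 chr11:105858771-105880791) encodes angiotensin-converting enzyme. Fresh ACF had 3.26, 5.31 and 4.23 CPM, against 3.35, 3.99 and 5.94 CPM in fresh YCF, and the ranges overlapped (-0.05 ± 0.40, adjusted p = 0.936). The 12 cultured ACF libraries ran from 14.9 to 65.9 CPM with a median of 38.4, all above the 3 fresh ACF libraries. The 11 cultured YCF libraries ran from 22.5 to 76.0 CPM with a median of 28.9, all above the 3 fresh YCF libraries. The rise was 3.03 ± 0.23 in ACF (adjusted p = 1.35e-12) and 2.95 ± 0.23 in YCF (adjusted p = 1.92e-12). The difference between these effects was 0.07 ± 0.37 (adjusted p = 0.928), and cultured ACF over cultured YCF was 0.06 ± 0.10 (adjusted p = 0.776).

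Agt, the gene of the precursor protein (ENSMUSG00000031980, mm39 chr8:125283273-125296446), had 0 counts in all 6 fresh libraries. At the depth of the fresh groups a count of 0 allows up to 0.400 CPM in ACF and 0.346 CPM in YCF, taking a floor of 3 counts over the group. After culture it was counted in every library, with 81 counts over the 12 ACF libraries and 123 counts over the 11 YCF libraries. Against the floor, the pooled level was at least 7.56-fold higher in cultured than in fresh ACF and at least 15.2-fold higher in cultured than in fresh YCF. Cultured ACF ran from 0.720 to 5.77 CPM with a median of 3.18, against 1.90 to 11.4 CPM with a median of 3.82 in cultured YCF. The ranges overlapped and the change with cell age did not pass the test (-0.76 ± 0.27, adjusted p = 0.0592). It passed in 3 of 29 alternatives, those without YCF+StiffY replicate 2 (-0.83, adjusted p = 0.0495), YCF+StiffA replicate 2 (-0.82, 0.0447) or ACF+StiffA replicate 3 (-0.85, 0.0400).

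Enpep (ENSMUSG00000028024, mm39 chr3:129062824-129126370), the aminopeptidase that consumes angiotensin II, was present at a few CPM in all groups. Fresh ACF had 2.86, 2.45 and 4.23 CPM, against 6.04, 4.85 and 5.49 CPM in fresh YCF. All 3 fresh ACF libraries lay below all fresh YCF libraries, but the change did not pass the test (-0.80 ± 0.39, adjusted p = 0.136). Cultured ACF ran from 0.720 to 3.73 CPM with a median of 2.37 and overlapped with fresh ACF (-0.61 ± 0.51, adjusted p = 0.301). Cultured YCF ran from 0 to 5.27 CPM with a median of 3.04, with 0 counts in 2 libraries, and Enpep fell by 1.03 ± 0.45 relative to fresh YCF (adjusted p = 0.0498). That call was lost in 13 of 20 alternatives, with adjusted p up to 0.158. These included DESeq2 (0.0624) and the fits without fresh YCF replicate 1 (0.158), 2 (0.0793) or 3 (0.106), and without 7 of the 11 cultured libraries in turn (0.0531 to 0.0898).

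The type 1 angiotensin receptor Agtr1a was low in fresh aged cells, and after culture it was higher in cells of both ages. Agtr1a (ENSMUSG00000049115, mm39 chr13:30520424-30566851) had 2.45, 1.23 and 0.770 CPM in fresh ACF, from 11 counts in all, against 12.1, 10.6 and 8.69 CPM in fresh YCF, from 92 counts. The groups did not overlap, and Agtr1a fell by 2.84 ± 0.42 in fresh ACF (adjusted p = 1.36e-04). Cultured ACF ran from 7.20 to 24.5 CPM with a median of 17.0, all above fresh ACF, a rise of 3.34 ± 0.32 (adjusted p = 2.10e-10). Cultured YCF ran from 13.4 to 40.9 CPM with a median of 21.5, all above fresh YCF, a rise of 1.17 ± 0.20 (adjusted p = 1.30e-05). The culture effect was larger in ACF by 2.18 ± 0.41 (adjusted p = 1.96e-04). Among cultured cells Agtr1a fell by 0.63 ± 0.12 in ACF relative to YCF (adjusted p = 7.10e-04), although the libraries overlapped.

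Beside the Agtr1a values, 3 of the 4 pericyte and smooth muscle markers tested fell in fresh ACF over fresh YCF, namely Notch3 (-3.70), Steap4 (-2.33) and Pdgfrb (-0.99), while Ndufa4l2 rose (1.06). The summed level of the 11 markers on that list was 564 to 722 CPM in cultured ACF, against 198 to 232 CPM in fresh ACF, and was 431 to 850 CPM in cultured YCF, against 382 to 433 CPM in fresh YCF. Higd1b, a marker of pericytes, was at 0 in all libraries. Of the 9 fibroblast markers, 5 fell and 2 rose in fresh ACF over fresh YCF, where 31.8% of all genes were called. In cultured ACF over cultured YCF 7 of the 9 fell and none rose, where 15.0% of all genes were called. Their medians were -0.54 and -0.27, in that order. The part of these shifts, and of pericytes and smooth muscle cells, in the Agtr1a values was not tested. The type 2 receptor Agtr2 (ENSMUSG00000068122, mm39 chrX:21350783-21355404) had no count in fresh cells, 1 count over the 12 cultured ACF libraries and 7 counts over the 11 cultured YCF libraries, too few for a comparison.

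Edn1, the gene of endothelin-1 (ENSMUSG00000021367, mm39 chr13:42454952-42461467), rose in culture in cells of both ages, and more so in young cells. Fresh ACF had 8.57, 4.90 and 8.47 CPM, against 5.03, 7.42 and 6.86 CPM in fresh YCF, with overlap (0.15 ± 0.34, adjusted p = 0.777). Edn1 lay at 9.53 to 22.1 CPM in cultured ACF with a median of 17.1, all above fresh ACF, a rise of 1.14 ± 0.23 (adjusted p = 6.76e-05). Cultured YCF ran from 28.4 to 52.1 CPM with a median of 38.1, all above fresh YCF, a rise of 2.49 ± 0.22 (adjusted p = 4.09e-11). The culture effect was smaller in ACF by 1.34 on the log2 scale (-1.34 ± 0.33, adjusted p = 0.00337). All 12 cultured ACF libraries lay below all 11 cultured YCF libraries, and Edn1 fell by 1.17 ± 0.12 in cultured ACF (adjusted p = 4.91e-08). Endothelial cells are a well known source of endothelin-1. In the same comparison 9 of the 12 endothelial markers tested rose in ACF, among them Cdh5 (1.41) and Pecam1 (1.12). Another 2 fell, Flt1 (-1.22) and Ptprb (-0.91). The part of such cells in the Edn1 values was not tested.

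The endothelin receptor Ednrb moved the opposite way, being highest in fresh aged cells and lower after culture. Ednrb (ENSMUSG00000022122, mm39 chr14:104052061-104081839) had 89.4, 81.3 and 83.9 CPM in fresh ACF, against 25.2, 29.1 and 28.8 CPM in fresh YCF. The groups did not overlap and Ednrb rose by 1.58 ± 0.12 in fresh ACF (adjusted p = 2.70e-07). The cultured ACF libraries lay at 7.60 to 23.3 CPM with a median of 18.7, all below fresh ACF, and Ednrb fell by 2.26 ± 0.14 (adjusted p = 7.33e-15). Cultured YCF ran from 3.04 to 14.5 CPM with a median of 6.27, all below fresh YCF, and Ednrb fell by 1.92 ± 0.18 (adjusted p = 1.21e-10). The difference between the culture effects was -0.34 ± 0.24 (adjusted p = 0.356). Among cultured cells Ednrb was again higher in ACF than in YCF, by 1.26 ± 0.16 (adjusted p = 1.83e-06), with overlapping libraries.

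Endothelial and Schwann cells also express Ednrb. In fresh ACF over fresh YCF, 3 of 13 endothelial markers tested rose and none fell, with a list median of 0.13, Cdh5 at 0.95 and Pecam1 at 0.13. The summed endothelial level was 655 to 688 CPM in fresh ACF, against 516 to 537 CPM in fresh YCF. It was 639 to 834 CPM in cultured ACF and 635 to 771 CPM in cultured YCF. Of the 13 endothelial markers tested in cultured over fresh cells, 3 rose and 9 fell in ACF, with a median of -0.65, and 3 rose and 10 fell in YCF, with a median of -1.41, so that most moved in the direction of Ednrb. Schwann cell markers summed to 4.50 to 12.7 CPM in fresh ACF, against 8.72 to 14.8 CPM in fresh YCF, and to 20.4 to 34.4 CPM in cultured ACF and 17.5 to 34.0 CPM in cultured YCF. The 1 Schwann cell marker of 6 that could be tested, Cdh19, rose in culture by 2.02 in ACF and by 1.69 in YCF, while Sox10 was at 0 in all cultured libraries. The part of these cells in the Ednrb values was not tested.

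Ednra (ENSMUSG00000031616, mm39 chr8:78389660-78451094), the other endothelin receptor, was at 8.60 CPM or less in every library. Fresh ACF had 2.04, 2.45 and 3.46 CPM, against 3.35, 5.13 and 5.03 CPM in fresh YCF, with overlap. Cultured ACF ran from 0.477 to 8.60 CPM and cultured YCF from 1.19 to 6.32 CPM. Culture moved it by 0.66 ± 0.38 in ACF (adjusted p = 0.133) and by -0.48 ± 0.34 in YCF (adjusted p = 0.234), neither past the test, and the difference of 1.14 ± 0.51 did not pass it either (adjusted p = 0.119).

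Of the natriuretic peptide receptors, the clearance receptor Npr3 rose in culture. Npr3 (ENSMUSG00000022206, mm39 chr15:11839982-11907374) had 2, 1 and 1 counts in fresh ACF, against 11, 6 and 6 counts in fresh YCF, too few for the filter although the groups did not overlap. Cultured ACF ran from 5.21 to 14.8 CPM with a median of 8.60, all above fresh ACF, a rise of 3.91 ± 0.53 (adjusted p = 1.89e-07) that rests on 4 fresh counts. Cultured YCF ran from 9.52 to 25.3 CPM with a median of 15.0, all above fresh YCF, a rise of 2.58 ± 0.35 (adjusted p = 2.31e-07). The difference between the effects was 1.33 ± 0.76 (adjusted p = 0.239). Npr3 fell by 0.89 ± 0.18 in cultured ACF relative to cultured YCF (adjusted p = 0.00144), with overlapping libraries. The guanylyl cyclase receptor Npr1 (ENSMUSG00000027931, mm39 chr3:90357898-90373174) had 22 counts in fresh ACF and 18 in fresh YCF, and 20 counts over the cultured ACF libraries and 12 over the cultured YCF libraries. Its group means were 2.94 ± 0.293 CPM in fresh ACF and 2.22 ± 1.46 CPM in fresh YCF, and between 0.268 and 0.992 CPM in the 8 cultured groups.

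**Figure D2:**
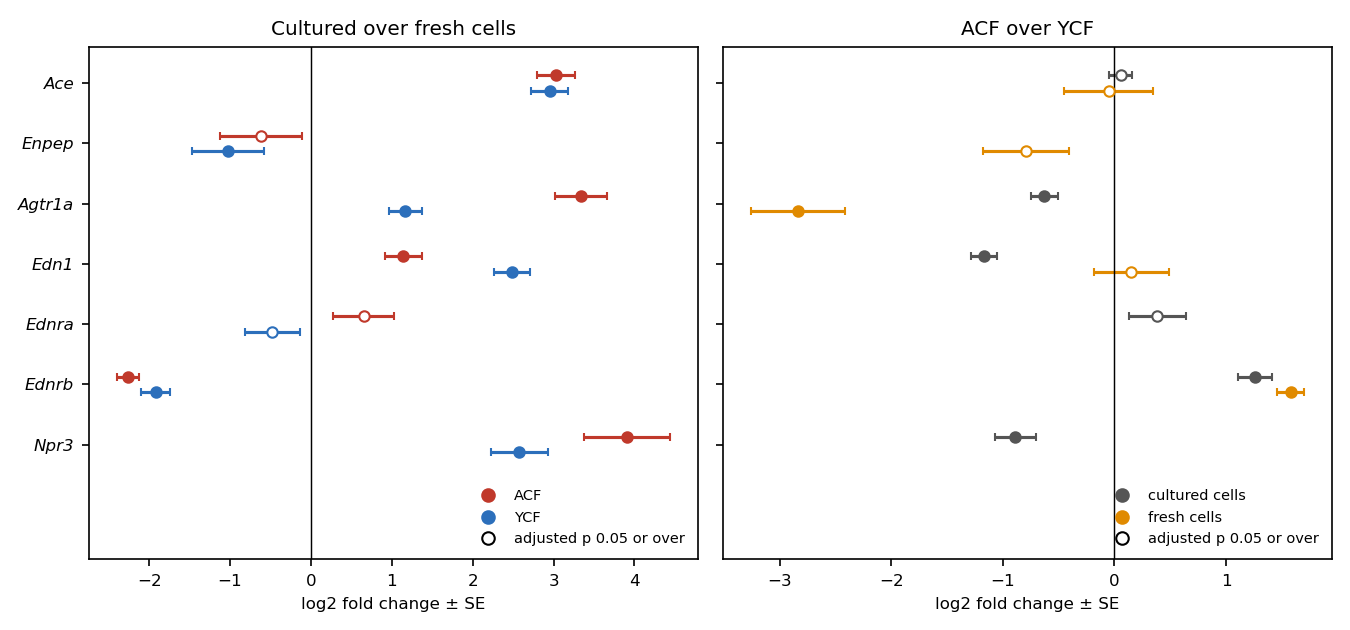
Log2 fold changes ± SE of the members tested, for cultured over fresh cells (left, ACF red and YCF blue) and for ACF over YCF (right, cultured cells grey and fresh cells orange), with open circles where the adjusted p was 0.05 or over. Agt is left out because it had no count in fresh cells. Agtr1a stands at 3.34 in ACF and 1.17 in YCF after culture, and Edn1 at 1.14 in ACF and 2.49 in YCF.

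Among the substrates, Ace was lower on aged than on young matrix in all 4 pairs, and the fall passed the test in 3 of them. On soft gels, ACF+SoftA had 14.9, 23.3 and 32.3 CPM of Ace, against 52.1, 49.4 and 65.9 CPM in ACF+SoftY. On stiff gels, ACF+StiffA had 21.7, 22.0 and 29.1 CPM, against 44.5, 45.2 and 61.1 CPM in ACF+StiffY. In neither pair did the libraries overlap. Ace fell by 1.18 ± 0.20 on the soft gels (adjusted p = 0.00103) and by 1.06 ± 0.20 on the stiff gels (adjusted p = 0.00255). In ACF, Ace was the only member of 7 called on soft gels, where 2.06% of all genes were called, and with Agtr1a it made 2 of 7 on stiff gels, where 2.71% were called.

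In young cells YCF+SoftA had 28.9, 24.7 and 25.7 CPM of Ace, against 53.2 and 76.0 CPM in the 2 libraries of YCF+SoftY. YCF+StiffA had 23.8, 23.3 and 22.5 CPM, against 35.7, 34.2 and 38.1 CPM in YCF+StiffY. Neither pair overlapped. Ace fell by 1.26 ± 0.22 on the soft gels (adjusted p = 8.83e-04), as the only member of 7 called, where 2.86% of all genes were called. Without YCF+SoftA replicate 3, the library least like the others of its group, the change was -1.27 (adjusted p = 0.00269). Leaving out YCF+SoftY replicate 1 or 2, which leaves 1 library in that group, gave -1.505 or -0.99. On the stiff gels the change was -0.62 ± 0.21 and did not pass the test (adjusted p = 0.278). There 0 of 7 members were called by edgeR and 0 by DESeq2, where 0.350% of all genes were called by edgeR, and 1 member, Ace, had an unadjusted p under 0.05. Whether the matrix effect on Ace differed between ACF and YCF was not tested. Of the 9 fibroblast markers, 4 fell and none rose in SoftA over SoftY in YCF, with a median of -0.22. In StiffA over StiffY in YCF 1 fell and 1 rose. In ACF 3 fell and 2 rose in SoftA over SoftY, with a median of -0.08. In StiffA over StiffY in ACF 4 fell and 1 rose, with a median of -0.49. The part of these in the Ace values was not tested.

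Agtr1a fell on aged matrix in 1 of the 4 pairs, stiff gels in ACF. ACF+StiffA had 9.76, 7.20 and 11.9 CPM, against 23.8, 24.5 and 12.9 CPM in ACF+StiffY, with no overlap and a gap set by replicate 3 of ACF+StiffY. Agtr1a fell by 1.09 ± 0.25 (adjusted p = 0.0155). The call was lost without ACF+StiffY replicate 1 (adjusted p = 0.0886) or 2 (0.103) and without ACF+StiffA replicate 1 (0.0611) or 2 (0.123), with the change between -0.92 and -1.36 over all alternatives. On the same substrates Ednra had 2.89, 2.52 and 0.477 CPM in ACF+StiffA, against 3.71, 8.18 and 8.60 CPM in ACF+StiffY, which did not pass the test (-1.70 ± 0.48, adjusted p = 0.0540) but passed it in 5 of 11 alternatives that gave an adjusted p. In the other 3 pairs Agtr1a changed by -0.28 ± 0.24 (SoftA over SoftY in ACF), -0.17 ± 0.24 (SoftA over SoftY in YCF) and -0.17 ± 0.24 (StiffA over StiffY in YCF), with adjusted p of 0.606 or more.

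On young matrix, Ace and Agtr1a were lower on the stiff than on the soft gel in young cells. In StiffY over SoftY in YCF, 2 members of 7 fell and none rose, where 4.56% of all genes were called. With these, 5 members had an unadjusted p under 0.05, as did 2168 of the 12841 genes tested. The others were Ednra (-1.57 ± 0.54, adjusted p = 0.108), Agt (-1.08 ± 0.49, adjusted p = 0.261) and Ednrb (-0.74 ± 0.34, adjusted p = 0.269). Ednra rested on 12 counts in YCF+StiffY and 32 counts in YCF+SoftY. The Ace values of these groups are those given for the matrix comparisons, which share the 2 libraries of YCF+SoftY, and Ace fell by 0.83 ± 0.21 (adjusted p = 0.0177). Agtr1a had 17.4, 18.3 and 21.5 CPM in YCF+StiffY, against 40.9 and 29.9 CPM in YCF+SoftY. The groups did not overlap and Agtr1a fell by 0.91 ± 0.24 (adjusted p = 0.0288). Each call was lost without some single library. For Ace these were YCF+SoftY replicate 2 (-0.57, adjusted p = 0.269) and YCF+StiffY replicates 1 (-0.84, 0.0591) and 2 (-0.79, 0.0860). For Agtr1a these were YCF+SoftY replicate 1 (-0.66, adjusted p = 0.357) and YCF+StiffY replicates 1 (-0.86, 0.112) and 2 (-0.88, 0.107). In the same comparison 1 of 12 endothelial markers tested fell, Pecam1 (-2.20), and 1 of 4 pericyte and smooth muscle markers fell, Steap4 (-2.68). Of the 9 fibroblast markers 5 fell and none rose, with a median of -0.72, and their summed level was 20943 to 21725 CPM in YCF+StiffY, against 29221 and 30516 CPM in YCF+SoftY. The part of these in the Ace and Agtr1a values was not tested.

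On aged matrix, stiffness moved no member past the test. In StiffA over SoftA, 0 of 7 members were called by edgeR in ACF, where 0.366% of all genes were called, and 0 of 7 in YCF, where 0.210% were called, and DESeq2 called 0 as well. 2 members in each cell age had an unadjusted p under 0.05. These were Agtr1a (-0.75 ± 0.26, adjusted p = 0.392) and Ednra (-1.15 ± 0.50, adjusted p = 0.605) in ACF, and Agtr1a (-0.91 ± 0.23, adjusted p = 0.147) and Edn1 (-0.49 ± 0.21, adjusted p = 0.535) in YCF. All Agtr1a libraries on StiffA lay below all those on SoftA at both cell ages. In YCF the Agtr1a change was close to that on young matrix (-0.91 ± 0.24). Its interaction of stiffness with matrix age in YCF was 0.0043 ± 0.36 (adjusted p = 0.999). ACF+StiffA had 9.76, 7.20 and 11.9 CPM, against 13.3, 15.9 and 18.0 CPM in ACF+SoftA. YCF+StiffA had 13.4, 18.6 and 18.3 CPM, against 37.3, 31.3 and 24.1 CPM in YCF+SoftA. In StiffY over SoftY in ACF, 0 of 7 members were called by edgeR and 0 by DESeq2, where 0.0545% of all genes were called by edgeR, and 0 had an unadjusted p under 0.05. Ace was at -0.15 ± 0.19 and Agtr1a at 0.05 ± 0.24 in that comparison.

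The interaction of stiffness with matrix age called 0 of 7 members by edgeR in ACF, where 0.0234% of all genes were called, and 0 of 7 in YCF, where 0.615% were called, and 2 members at each cell age had an unadjusted p under 0.05. Under DESeq2 the interaction also called no member at either cell age. In ACF the 2 were Agtr1a (-0.81 ± 0.35, adjusted p = 0.876) and Ednra (-1.55 ± 0.66, adjusted p = 0.874), and in YCF they were Ace and Edn1. For Ace the interaction was 0.13 ± 0.28 in ACF and 0.64 ± 0.31 in YCF (adjusted p = 0.978 in ACF and 0.427 in YCF). For Edn1 it was -0.06 ± 0.35 in ACF and -0.94 ± 0.31 in YCF (adjusted p = 0.996 in ACF and 0.191 in YCF). Over the 8 substrate pairs Edn1 changed by -0.49 to 0.54, with no call. In YCF its libraries lay higher on SoftA than on SoftY without overlap (0.54 ± 0.24, adjusted p = 0.263). They also lay higher on StiffY than on SoftY without overlap (0.45 ± 0.23, adjusted p = 0.335). Both separations rest on the same 2 libraries of YCF+SoftY. Npr3 changed by -0.60 to 0.12 and Agt by -1.30 to 1.08 over the 8 substrate pairs, with no call. Ednrb was called in none of them, with its lowest value in SoftA over SoftY in YCF (-1.17 ± 0.37, adjusted p = 0.0926). There YCF+SoftA had 3.04, 6.27 and 6.04 CPM, against 10.3 and 14.5 CPM in YCF+SoftY. That change passed the test in 1 of 11 alternatives, with libraries blocked by library number (-1.45, adjusted p = 0.0189). In SoftA over SoftY in ACF, 4 of 12 endothelial markers rose, among them Pecam1 (1.61), Tie1 (2.03) and Cdh5 (1.19), beside an Ednrb change of 0.32 ± 0.27 and an Edn1 change of -0.16 ± 0.24.

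**Figure D3:**
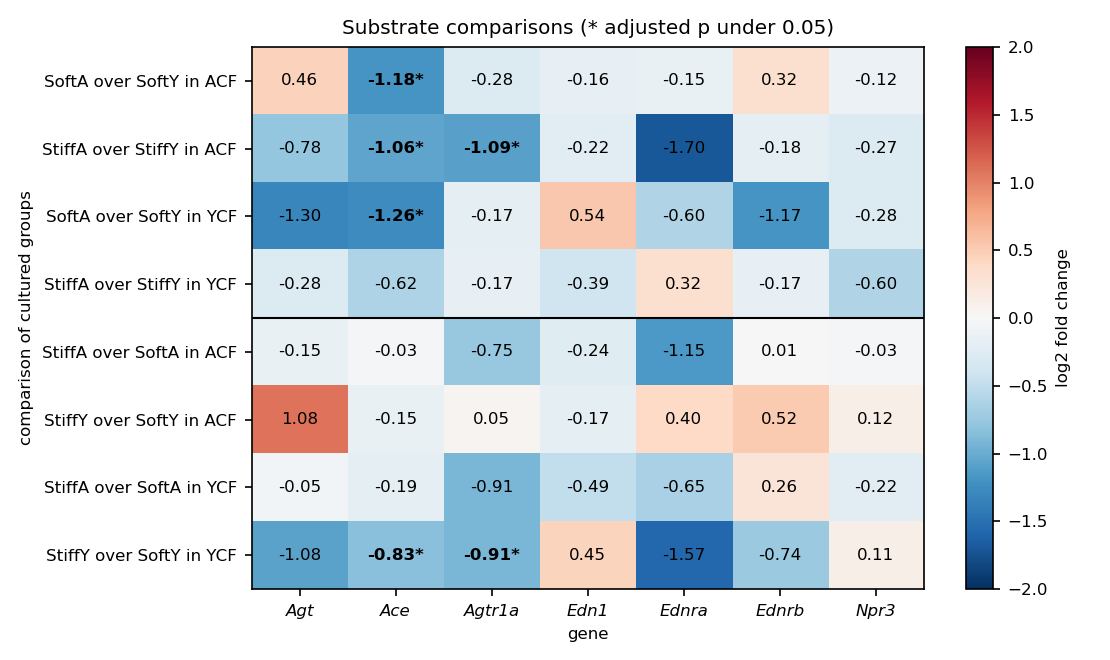
Log2 fold changes of the 7 members tested among cultured cells (columns) in the 8 substrate comparisons (rows), matrix age above the line and stiffness below it, with blue for lower and red for higher values and asterisks for an adjusted p under 0.05. Ace carries 3 of the 4 asterisks above the line, between -1.26 and -1.06, and Ace and Agtr1a carry the 2 below it.

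Group means (± SD over 3 libraries, 2 for YCF+SoftY) gave each member an order of levels, in which a step is named where it exceeded the SD of both neighbouring groups. For Ace the order was YCF+SoftY (64.6 ± 16.1), ACF+SoftY (55.8 ± 8.86), ACF+StiffY (50.3 ± 9.40), YCF+StiffY (36.0 ± 1.95), YCF+SoftA (26.4 ± 2.22), ACF+StiffA (24.2 ± 4.19), ACF+SoftA (23.5 ± 8.70), YCF+StiffA (23.2 ± 0.655), fresh YCF (4.43 ± 1.35) and fresh ACF (4.27 ± 1.02 CPM). Steps stood above YCF+StiffY, below it, and between YCF+StiffA and fresh YCF. For Agtr1a, the soft young-cell groups YCF+SoftY (35.4 ± 7.82) and YCF+SoftA (30.9 ± 6.57) led, and a step separated them from 5 groups between 20.4 ± 6.53 (ACF+StiffY) and 15.7 ± 2.36 CPM (ACF+SoftA). A further step led to fresh YCF (10.4 ± 1.69) and ACF+StiffA (9.62 ± 2.36), which did not differ beyond their spread, and fresh ACF stood apart below (1.48 ± 0.868 CPM).

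For Edn1, YCF+SoftA (45.3 ± 8.38) and YCF+StiffY (42.0 ± 3.54) stood a step above YCF+StiffA (32.2 ± 5.99) and YCF+SoftY (31.4 ± 3.45). The next step led to the 4 ACF cultures, between 18.8 ± 0.836 (ACF+SoftY) and 14.0 ± 3.88 CPM (ACF+StiffA), and the last one to fresh ACF (7.31 ± 2.09) and fresh YCF (6.44 ± 1.25 CPM). For Ednrb the order ran from fresh ACF (84.9 ± 4.10) and fresh YCF (27.7 ± 2.20) over ACF+StiffY (21.0 ± 2.35) to the 3 other ACF cultures and YCF+SoftY (18.3 ± 2.46 to 12.4 ± 2.96), and then to the other YCF cultures (7.29 ± 1.54 to 5.12 ± 1.80 CPM). Its steps came after fresh ACF, fresh YCF, ACF+StiffY and YCF+SoftY. For Npr3 the 8 cultured groups, from YCF+StiffY (19.8 ± 2.44) to ACF+StiffA (8.27 ± 0.333 CPM), showed no such step between neighbours.

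Levels of different genes are compared per kilobase of merged exons, with lengths from GENCODE M21 (GRCm38). In fresh cells Ednrb led the members, with 19.9 CPM per kilobase in ACF and 6.49 in YCF, and Edn1 had 3.42 in ACF and 3.01 in YCF. Agtr1a had 0.532 CPM per kilobase in fresh ACF and 3.75 in fresh YCF. On SoftY, Ace (10.6 in ACF and 12.2 in YCF), Edn1 (8.81 in ACF and 14.7 in YCF) and Agtr1a (7.05 in ACF and 12.7 in YCF) stood above Ednrb (3.38 in ACF and 2.91 CPM per kilobase in YCF). That order did not hold on every substrate. In ACF+StiffA Ace had 4.58 and Agtr1a 3.45, against 4.30 CPM per kilobase for Ednrb. In ACF+SoftA Ace had 4.44, against 4.30 for Ednrb. Ednra, Npr1 and Enpep stayed at 1.25 CPM per kilobase or less in every group. Annotated genes that overlap a member (6 long noncoding RNAs and a pseudogene) had 0 to 9 counts each over all libraries. Without a stated strand setting, reads of a member and of an antisense gene cannot be told apart.

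The wider pathways were described with 4 lists of 61 genes, of which 42 could be tested in cultured over fresh cells. In ACF 21 rose and 12 fell, where 62.4% of all genes were called, and in YCF 20 rose and 11 fell, where 56.9% were called. The median was 0.23 in ACF and 0.31 in YCF. Of the genes that rose, Gucy1a1 and Prkg1 had the smallest adjusted p at both cell ages. Gucy1a1 and Gucy1b1, subunits of the soluble guanylyl cyclase that nitric oxide activates, rose by 6.34 ± 0.17 and 3.55 ± 0.18 in ACF and by 4.98 ± 0.14 and 3.03 ± 0.17 in YCF. Prkg1, a cyclic GMP-dependent protein kinase downstream of both soluble guanylyl cyclase and the natriuretic peptide receptors, rose by 2.90 ± 0.13 in ACF and 3.18 ± 0.14 in YCF, while its relative Prkg2 fell by 3.57 ± 0.23 in ACF and by 2.41 ± 0.24 in YCF. Of 11 members of the natriuretic peptide and cyclic GMP list tested, 7 rose and 2 fell in ACF, and 7 rose and 1 fell in YCF, beside the same shares of 62.4% and 56.9% of all genes called in ACF and in YCF.

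Gucy1a1 had 1.63 to 4.08 CPM in fresh ACF, against 7.42 to 11.0 CPM in fresh YCF, and it fell by 1.63 ± 0.40 in fresh ACF (adjusted p = 0.00579). In culture it was at 157 to 287 CPM in ACF and 187 to 375 CPM in YCF, and it fell by 0.22 ± 0.05 in ACF (adjusted p = 0.00480). Its rise in culture was larger in ACF by 1.37 ± 0.27 (adjusted p = 5.06e-04). Among substrates it was lower on the stiffer gel in 3 of the 4 stiffness pairs, by -0.65 ± 0.10 for StiffA over SoftA in ACF, -0.62 ± 0.10 for StiffA over SoftA in YCF and -0.69 ± 0.11 for StiffY over SoftY in YCF (adjusted p = 9.73e-04, 0.00386 and 1.85e-04). It also fell by 0.69 ± 0.10 in StiffA over StiffY in ACF.

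Of the peptide-processing enzymes, Anpep, the aminopeptidase that shortens angiotensin III, fell by 2.65 ± 0.10 in cultured ACF and by 1.87 ± 0.11 in cultured YCF, and Thop1, an endopeptidase that cuts angiotensin I, fell by 1.60 ± 0.13 in ACF and by 1.69 ± 0.13 in YCF. Atp6ap2, the prorenin receptor, fell by 1.18 ± 0.09 in ACF and by 0.68 ± 0.10 in YCF. Ece1, which releases endothelin-1 from its precursor, fell by 0.41 ± 0.07 in cultured ACF and by 0.59 ± 0.07 in cultured YCF, and rose by 0.31 ± 0.05 in cultured ACF over cultured YCF. Anpep fell in 3 of the 4 substrate comparisons in which Ace fell. In the other it averaged 60.2 ± 11.1 CPM in ACF+SoftA, against 92.1 ± 2.10 CPM in ACF+SoftY, and did not pass the test (-0.63 ± 0.18, adjusted p = 0.0767). It averaged 57.5 ± 9.24 CPM in ACF+StiffA, against 103 ± 6.95 CPM in ACF+StiffY (-0.84 ± 0.18), and 81.4 ± 29.7 CPM in YCF+SoftA, against 208 ± 5.18 CPM in YCF+SoftY (-1.29 ± 0.19). It averaged 69.2 ± 3.61 CPM in YCF+StiffY, which was -1.57 ± 0.19 from YCF+SoftY, and was the only listed gene of 40 with a called interaction in YCF (1.75 ± 0.26, adjusted p = 2.95e-04). Mme, the neprilysin that degrades natriuretic peptides and endothelin, fell in the same 2 YCF comparisons, by 1.06 ± 0.24 with the aged matrix and by 1.15 ± 0.23 with stiffness.

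Of the genes downstream of these receptors, Plcb4, a phospholipase C driven by Gq, rose by 2.27 ± 0.13 in cultured ACF and by 2.47 ± 0.12 in cultured YCF. It also rose with stiffness on young matrix in YCF (0.57 ± 0.12) and with aged matrix in YCF+SoftA (0.49 ± 0.12) and ACF+StiffA (0.40 ± 0.11). Grk5, a kinase that desensitises receptors, rose by 1.65 ± 0.11 in cultured ACF, and on the stiff gels it rose with aged matrix by 0.42 ± 0.11 in ACF and 0.57 ± 0.11 in YCF. Rcan1, a calcineurin target and regulator, was at 22.8 to 34.3 CPM in fresh ACF, against 3.35 to 4.57 CPM in fresh YCF (2.69 ± 0.26, adjusted p = 2.59e-06), and fell by 3.85 ± 0.27 in cultured ACF. In fresh ACF over fresh YCF 9 of 40 listed genes tested rose and 7 fell, where 31.8% of all genes were called, and in cultured ACF over cultured YCF 5 rose and 5 fell of 40, where 15.0% were called. The other ligands and renin were at or near 0. Ren1, Edn2 and Edn3, named after their values were seen, had 0 counts in all 29 libraries. Nppa had 1 count and Nppb 2 counts in fresh ACF alone, and Nppc had 2 counts in cultured ACF and 4 in fresh YCF.

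**Figure D4:**
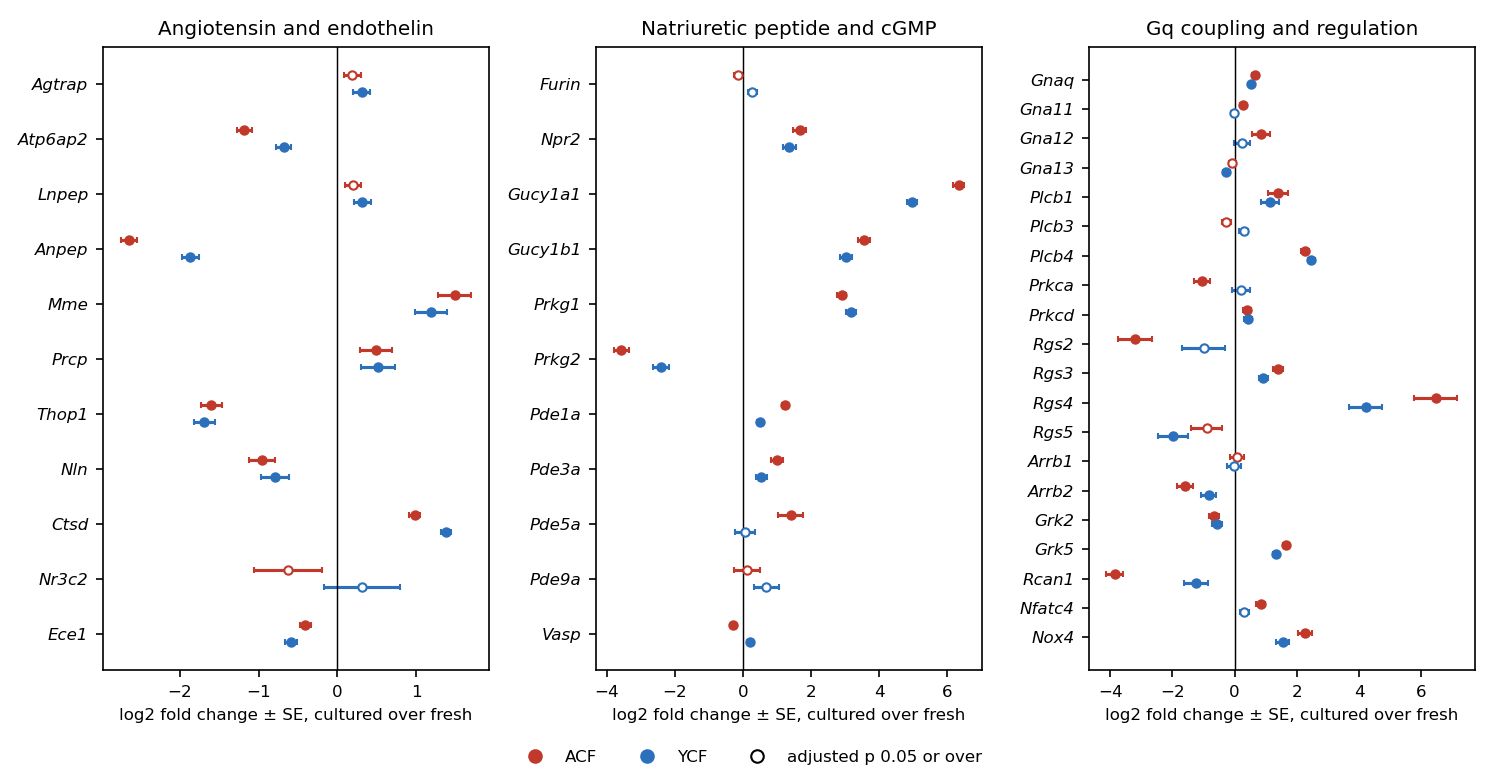
Log2 fold changes ± SE of listed pathway genes in cultured over fresh cells, ACF (red) above YCF (blue) for each gene, with open circles where the adjusted p was 0.05 or over. Gucy1a1 lies at 6.34 in ACF and 4.98 in YCF, and Anpep at -2.65 in ACF and -1.87 in YCF.

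For the 5 members with a mean of at least 10 CPM over all libraries, the genes with the most similar profile were found by Pearson's r over the 10 group means of log2 CPM, among 8743 genes. They were Bmpr1a (0.988), Mib2 (0.987) and Inhbb (0.986) for Ace, Peg3 (0.983), Sfrp2 (0.977) and Birc2 (0.976) for Agtr1a, and Igfbp2 (0.980), Crip2 (0.962) and Fsd1 (0.961) for Edn1. For Ednrb they were Lrrn4cl (0.966), Tnc (0.954) and Rassf8 (0.951), and for Npr3 they were Irag1 (0.987), Hspb6 (0.987) and Sorbs3 (0.987). The points share the contrast of fresh with cultured cells and the libraries of each group. Between members, the same measure was -0.90 for Edn1 with Ednrb, 0.91 for Ace with Agt, and 0.79 for Ace with Agtr1a, as a description over 10 groups.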

How the data were processed

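Per the labels' protocols, the NEBNext low-input kit was used for all 29 libraries, with 20 ng of RNA as input. The submitters' processing notes name the aligner STAR 2.7.8a and the genome build mm39. The authors deposited raw counts per gene with gene coordinates, in 1 table of 29 columns that were all tied to a sample by title. The table's name points to HTSeq as the counter, and its version, strand setting and annotation release were not given in the sources used here. The members and gene lists were chosen with earlier results of these data known.

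edgeR 4.0.16 under R 4.3.3 was used for all main fits, with a filterByExpr minimum count of 10 by group, TMM scaling, the quasi-likelihood F test and Benjamini-Hochberg adjustment over all genes of a comparison, with calls at an adjusted p under 0.05. The 6 fresh libraries were fitted alone, the 23 cultured libraries together in 8 groups, and cultured against fresh cells over all 29, with groups weighted equally. Each SE was obtained by dividing the size of the log2 fold change by the root of its F statistic. DESeq2 1.42.0, relative log expression factors, no filter, all libraries in 1 fit, replicate blocks and leaving out each library served as alternatives, with the 15 comparisons each refitted. The fits were tested on simulated counts with known changes. From the pathway lists at most 5 genes per comparison and direction were named, those with the smallest adjusted p. Log2 CPM for profiles used a prior count of 2. Counting error alone underlies the floors of 3 counts.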

Additional observations from a re-analysis of the deposited data

Results flagged for a closer look

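The effect of culture differed between aged and young cells for 2 of the 8 members tested by the interaction test of edgeR. It did so for 20.6% of all genes tested, a share near that of the members. The 8 include Agt, whose difference could not be estimated because it had no count in fresh cells. For Agtr1a the difference, ACF minus YCF, was 2.18 ± 0.41 (adjusted p = 1.96e-04), from a culture effect of 3.34 ± 0.32 in ACF and 1.17 ± 0.20 in YCF, with every cultured library above every fresh one at both ages. It ran from 1.87 to 2.72 over 34 alternatives and kept its call in each. The fresh ACF libraries held 11 counts of Agtr1a in all. For Edn1 the difference was -1.34 ± 0.33 (adjusted p = 0.00337), from 1.14 ± 0.23 in ACF and 2.49 ± 0.22 in YCF. It ran from -1.56 to -1.19 over 34 alternatives, with an adjusted p of 0.0244 at most. The summed level of pericyte and smooth muscle markers was 198 to 232 CPM in fresh ACF, against 382 to 433 CPM in fresh YCF, and its part in these values was not tested.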

How the results depend on the processing

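The 27 member changes called included Agt in cultured over fresh cells at both ages. These Agt changes were not followed through the alternatives, because fresh cells held no count of it. Of the others, Enpep in cultured YCF and 3 substrate changes of Ace and Agtr1a lost their call in some alternatives. The rest kept their direction and their call under each alternative run. Enpep in cultured over fresh YCF was -1.01 with relative log expression factors (adjusted p = 0.0537), -1.02 with DESeq2 (0.0624) and -0.995 with YCF libraries alone (0.1002). Ednra in StiffA over StiffY in ACF passed the test at -1.70 with no filter, -1.76 with either replicate block and -1.72 with all libraries in 1 fit (adjusted p from 0.0324 to 0.0484). Changes near 0 turned sign without single libraries. Ace in fresh ACF over fresh YCF ranged from -0.23 to 0.19 with 1 library left out, and was 0.19 without fresh YCF replicate 3 and 0.11 without fresh ACF replicate 1. The difference of its culture effect ranged from -0.13 to 0.25, and was -0.13 and -0.08 without the same libraries. Its change in cultured ACF over cultured YCF ranged from -0.0061 without ACF+SoftA replicate 3 to 0.13.

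No pairing of libraries was adopted, because no label ties a number to an animal and same-numbered libraries did not all deviate together. With library numbers, 11 of 18 same-numbered pairs of cultured libraries in ACF and 13 of 15 in YCF correlated above 0.1. Of differently numbered pairs, 3 of 36 in ACF and 6 of 30 in YCF did so. Same-numbered libraries were thus more alike, which the main fits take no account of. The main fits called 47 genes for StiffA over SoftA in ACF and 27 in YCF. For StiffY over SoftY they called 7 in ACF and 586 in YCF, and for SoftA over SoftY 264 in ACF and 367 in YCF. For StiffA over StiffY they called 348 in ACF and 45 in YCF, and for the interaction 3 in ACF and 79 in YCF. A replicate block by library number gave 93 for StiffA over SoftA in ACF, 52 in YCF and 11 for StiffY over SoftY in ACF. It gave 808 for SoftA over SoftY in ACF, 596 in YCF, 659 for StiffA over StiffY in ACF and 96 in YCF. For the interaction it gave 5 in ACF and 267 in YCF. The block by title number gave 620 for SoftA over SoftY in ACF, 543 for StiffA over StiffY in ACF and 5 for the interaction in ACF. With the block by library number 2 members were called in SoftA over SoftY in YCF, as Ednrb also fell (-1.45, adjusted p = 0.0189).

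With no filter on low counts, genes called were 109 for StiffA over SoftA in ACF, 78 in YCF, 705 for SoftA over SoftY in ACF, 98 for StiffA over StiffY in YCF, and 23 for the interaction in ACF and 186 in YCF. All libraries in 1 fit gave 11 for StiffY over SoftY in ACF and 145 for the interaction in YCF, and DESeq2 gave 11 for the interaction in ACF. The cause was not tested.

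Leaving out 1 library at a time, genes called ranged from 254 to 455 for StiffY over SoftY in YCF, 10 to 25 for StiffA over SoftA in YCF, 4 to 6 for StiffY over SoftY in ACF, 23 to 32 for StiffA over SoftA in ACF, 140 to 468 for SoftA over SoftY in YCF, 18 to 37 for StiffA over StiffY in YCF, 103 to 314 for SoftA over SoftY in ACF, 171 to 293 for StiffA over StiffY in ACF and 47 to 211 for the interaction in YCF. Members called ranged from 0 to 2 for StiffY over SoftY in YCF and 1 to 2 for StiffA over StiffY in ACF. Low counts left Agtr2 and Npr1 untested in all 15 comparisons and Enpep in 11.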
